A study of Homo sapiens with 9 samples.

Results

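Long noncoding RNAs (lncRNAs) are transcripts of gene length without a recognised protein-coding frame. The abundant autosomal lncRNAs of HAL-01 cells were selected on their measured level. A gene was a member if GENCODE release 44 classes it as lncRNA, if it lies on chromosomes 1 to 22, and if its mean over the 9 libraries was at least 10 CPM (the gene's estimated counts scaled to a library total of 1000000). SOCS2-AS1, TMEM161B-DT, MEF2C-AS1 and MEF2C-AS2 were left out by name, and of these 4 only SOCS2-AS1 and TMEM161B-DT reached the minimum. The rule found 291 members among the 62700 genes of the tables, and among 18390 autosomal lncRNA genes, of which 6984 had any count. The genes just inside the minimum were ZMPSTE24-DT with a mean of 10.003 CPM, LINC01232 with 10.06 CPM and LINC00623 with 10.12 CPM. Those just outside were WARS2-AS1 with 9.999 CPM, ENSG00000291143 with 9.98 CPM and GOT1-DT with 9.96 CPM.

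HAL-01 is a B cell acute lymphoblastic leukemia line that expresses the fusion transcription factor TCF3::HLF. All cells carried Cas9GFP. They received sgRNA_96 or sgRNA_97, both directed at an enhancer of MEF2C that the fusion binds (together the MEF2C-enhancer KO), or the control guide SCR1, and RNA was taken at day 13 from 3 replicates per guide (numbered 1, 3 and 4). The cultures are a single line and were sequenced as bulk, so the extent of editing per cell and the fate of unedited cells are not resolved, and fewer cells with a transcript cannot be told apart from less transcript per cell. The labels do not say whether replicates were separate cultures, so p-values measure the spread between these libraries, which may be technical.

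Host genes make up much of the abundant lncRNA pool of a cell. The spliced RNA of a small nucleolar RNA (snoRNA) host gene is often a by-product: the snoRNAs are trimmed from its introns and guide the chemical modification of ribosomal RNA, and the remaining exons are commonly degraded during translation by nonsense-mediated decay. MicroRNA host genes carry hairpins that DROSHA and DICER1 cut into mature microRNAs, which pair with target mRNAs mainly through the seed. Other lncRNAs stay in the nucleus, such as NEAT1, the scaffold of paraspeckles, and MALAT1, which concentrates in nuclear speckles. Divergent transcripts (symbols ending in -DT) start near the promoter of a coding gene and run away from it, and antisense transcripts (-AS) lie on the other strand of one. Many such RNAs are short-lived and are cleared by the nuclear exosome.

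Among the members, 23 contained 35 microRNA hairpins on their own strand. The mature sequences below belong to the hosts on which the comparison turns and are given from RefSeq (GRCh38.p14), 5′ to 3′, with the seed (bases 2 to 8) in capitals. MIR34AHG on chromosome 1 holds miR-34a, and MIR3142HG on chromosome 5 holds miR-146a, a microRNA known for damping innate immune signalling. LINC-PINT on chromosome 7 holds miR-29a and miR-29b, which share a seed. MIR17HG on chromosome 13 is the host of the miR-17-92 cluster, known as an oncogenic cluster in lymphoid cells, whose 6 hairpins fall into 4 seed groups.
hsa-miR-34a-5p (chr1:9151735-9151756, minus strand): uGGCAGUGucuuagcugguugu
hsa-miR-146a-5p (chr5:160485372-160485393, plus strand): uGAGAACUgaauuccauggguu
hsa-miR-600 (chr9:123111561-123111583, minus strand): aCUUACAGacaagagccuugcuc
hsa-miR-29a-3p (chr7:130876748-130876769, minus strand): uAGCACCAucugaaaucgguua
hsa-miR-29b-3p (chr7:130877467-130877489, minus strand): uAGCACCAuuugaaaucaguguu
hsa-miR-17-5p (chr13:91350618-91350640, plus strand): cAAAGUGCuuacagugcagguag
hsa-miR-20a-5p (chr13:91351072-91351094, plus strand): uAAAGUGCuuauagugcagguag
hsa-miR-18a-5p (chr13:91350756-91350778, plus strand): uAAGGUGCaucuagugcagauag
hsa-miR-19a-3p (chr13:91350939-91350961, plus strand): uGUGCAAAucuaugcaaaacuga
hsa-miR-19b-3p (chr13:91351245-91351267, plus strand): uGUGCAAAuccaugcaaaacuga
hsa-miR-92a-3p (chr13:91351361-91351382, plus strand): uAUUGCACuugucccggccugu
The promoter of PURPL, the second largest riser below, is shown for a p53 response element in capitals with 5 bases on each side. Its last base lies 108 bases before the RefSeq start.
PURPL promoter (chr5:27472160-27472189, plus strand): gcccaGGGCTTGTCTGGGCATGCCCacagt
The libraries measured polyadenylated RNA, so the host transcripts were counted and the mature microRNAs and snoRNAs were not.

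Depth ranged from 15212462 to 29777361 estimated counts per library. The first principal component, with 22.1% of the variance, separated SCR1 from KO libraries, and on the second, with 15.4%, sgRNA_96 replicate 1 and sgRNA_97 replicate 1 lay apart from the rest at opposite ends. All 9 B lymphoblast markers were expressed, with a summed level of 4422 to 4632 TPM (transcript abundance corrected for length and scaled to 1000000 per library) in SCR1 and 4470 to 4814 TPM in KO. T cell and erythroid markers were at 0, and the 4 myeloid markers summed to 4.03 to 5.25 TPM in SCR1 and 6.02 to 9.29 TPM in KO, with LYZ and CD14 under 1 TPM. Epithelial and fibroblast markers were under 1 TPM in sum. MEF2C itself measured 552 ± 13.4 CPM in the controls (SD, n = 3) and 509 ± 22.1 CPM under KO (SD, n = 6), a log2 difference of -0.12 that missed the threshold in edgeR (SE 0.04, adjusted p = 0.0620). MEF2C was called lower with DESeq2 (adjusted p = 0.0265), with the GC trend (0.00495), with the length trend (0.0237), without sgRNA_97 replicate 1 (0.0141) and without replicate 1 of both guides (0.0140).

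Per unit of length, the most abundant lncRNAs were snoRNA hosts. They held 9 of the 10 highest places by mean TPM over the 9 libraries. SNHG29 led with a mean of 1578 TPM, followed by GAS5 with 890 TPM, SNHG5 with 563 TPM, SNHG32 with 381 TPM and SNHG6 with 360.1 TPM. ENTPD1-AS1 (165 TPM), NEAT1 (111 TPM) and MALAT1 (108 TPM) were the highest named members outside that group. Mean levels of 100 TPM or more were reached by 15 members, 87 lay under 10 TPM, and the median was 14.3 TPM.

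To determine how the abundant lncRNAs respond to disruption of the enhancer, KO (6 libraries) was set against SCR1 (3 libraries) in a fit over all 14436 genes that passed the filter on low counts. All 291 members passed it. Of these, 97 rose, 3 fell and 191 did not pass the threshold (edgeR's quasi-likelihood test, Benjamini-Hochberg adjusted p under 0.05 over all genes). This was 33.3% of the members called higher, where 10.1% of all genes tested were called higher and 10.6% lower. The direction was unequal across the group: 237 of the 291 log2 fold changes were above 0, and their median was 0.15, against 0.00 for all genes tested. The rises were small. Among the 97 called higher the median log2 fold change was 0.38, the range 0.16 to 1.34, and 4 of the 97 rose at least 2-fold. Control libraries weighed heavily on the count: without SCR1 replicate 1, 53 members were called higher and 1 lower, of which 53 were among the 97. That was 18.2% of members called higher, and the share of all genes called higher fell as well, to 5.58%. By limma on log2(TPM + 1), 46 were called higher and 1 lower. There 15.8% of members and 4.23% of all genes were called higher.

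Coding genes above the same minimum gave other shares, in a comparison without a test. Of 9176 protein-coding genes with a mean of at least 10 CPM, 11.6% were called higher and 15.2% lower, with a median log2 fold change of -0.02. Among the 1667 tested autosomal lncRNAs under 10 CPM, 104 were called higher and 11 lower, with a median of 0.19. KO libraries outnumber control libraries in the mean that chose the members. In all, 32 members reached 10 CPM in the KO mean only and 4 in the SCR1 mean only. Most members were also higher in KO, so the part of the weighting in this split cannot be told apart. Of the 255 that reached it in both group means, 80 were called higher and 2 lower.

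Values of the groups did not overlap for many members. In 86 members every KO library lay above every SCR1 library (29.6%), which was so for 10.1% of all genes tested, and in 2 members every KO library lay below (0.687%), against 10.2% of all genes. The 86 keep members that reached 10 CPM in the KO mean only, such as LINC02984. The count was not repeated without these members, so it is a description.

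The summed share of all counts showed the same in each library. The 269 members other than snoRNA hosts took 0.774%, 0.815% and 0.786% of the counts in SCR1 replicates 1, 3 and 4, and between 0.873% and 0.963% with a median of 0.932% in KO. All KO libraries lay above all controls, with replicate 1 of each guide lowest among them. This sum too keeps members that reached 10 CPM in the KO mean only. All lncRNA genes, taken without the minimum, held 1.64 to 1.71% in SCR1 and 1.84 to 1.99% in KO. The 22 snoRNA hosts took 0.298 to 0.31% in SCR1 and 0.3 to 0.328% in KO, and these ranges overlapped.

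Other features of the libraries moved with this. Retained-intron transcripts of protein-coding genes took 5.62 ± 0.108% of the counts in SCR1 (SD, n = 3) and 6.37 ± 0.234% in KO (SD, n = 6), without overlap. Mitochondrial genes took 6.17 ± 0.191% (SD, n = 3) and 6.69 ± 0.315% (SD, n = 6), with overlap. The part of these shares in the lncRNA rises was not tested.

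**Figure D1:**
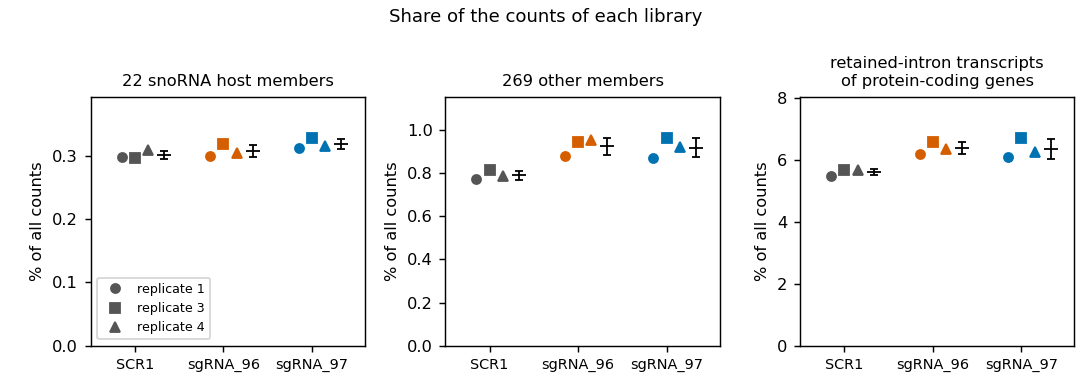
Share of all counts per library (percent, axes from 0) of the 22 snoRNA host members, the 269 other members and the retained-intron transcripts of protein-coding genes, with points for libraries and bars for mean and SD (n = 3 per guide). The snoRNA hosts overlap between SCR1 and KO, while the other 2 shares are higher in all 6 KO libraries than in all 3 controls.

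Each guide was next compared with SCR1 on its own. With sgRNA_96, 61 members were called higher and 1 lower, where 5.78% of all genes were called higher and 5.41% lower. With sgRNA_97, 68 were called higher and 8 lower, where 7.35% of all genes were called higher and 7.76% lower. Both comparisons share the same 3 control libraries. Called higher with each guide and in the pooled comparison were 50 members, and called lower in all of them was only LINC02909. The share of all genes called in all of these comparisons was not computed. The pooled fit also uses the same libraries, so this count is a description. No member was called between sgRNA_97 and sgRNA_96 in edgeR (13 had an unadjusted p under 0.05), where 0.0208% of all genes tested were called, and DESeq2 and limma called none. Without the filter on low counts edgeR called ENSG00000257379 (log2 fold change -0.66) and ENSG00000289280 (-0.34) lower with sgRNA_97.

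**Figure D2:**
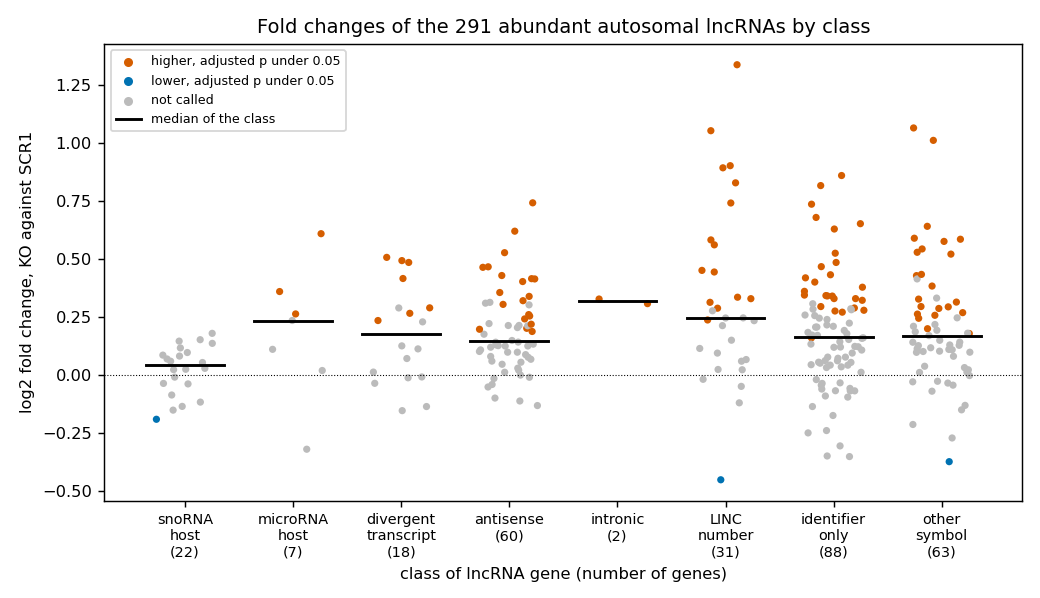
Log2 fold change of KO against SCR1 (linear axis) for each of the 291 members, grouped by the class of the gene, with points colored by the call (edgeR, adjusted p under 0.05) and black lines at class medians. The snoRNA hosts lie around 0 with a median of 0.04, and every other class has its median above 0.1.

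The snoRNA hosts, the most abundant per length, were mostly not called. Of the 30 genes on the list, 22 were members. In edgeR none of these was called higher, 1 was called lower (4.55%), and their median log2 fold change was 0.04. Among all genes tested, 10.1% were called higher and 10.6% lower. DESeq2 called 2 higher, GAS5 (adjusted p = 0.0322) and SNHG32 (0.0490), and 1 lower. SNHG29 was at 972, 960 and 982 CPM in SCR1 replicates 1, 3 and 4, and between 919 and 1032 CPM with a median of 1001 CPM in KO. Its log2 fold change was 0.03 (SE 0.04, adjusted p = 0.687), and the control values lay inside the KO range.

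GAS5, a host named for its accumulation in growth-arrested cells, was at 357, 361 and 367 CPM in SCR1 and between 357 and 433 CPM with a median of 399 CPM in KO. Its log2 fold change was 0.14 (SE 0.05, adjusted p = 0.0646). Most KO libraries lay above the controls, and sgRNA_96 replicate 1 lay among them. Without that library the adjusted p was 0.00841 in edgeR. Over the alternatives it lay between 0.00841 and 0.195. SNHG1 (log2 fold change 0.03), SNHG5 (-0.03), SNHG6 (0.02), SNHG8 (0.08), SNHG32 (0.18), ZFAS1 (0.12) and EPB41L4A-AS1 (0.09) were likewise not called in edgeR. SNHG32 was called higher in 6 of the alternatives and ZFAS1 in 2, among them those without sgRNA_96 replicate 1 (adjusted p = 0.0435 and 0.0468), and SNHG32 also without sgRNA_96 replicate 4 (0.0304).

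The exception was DANCR, a snoRNA host known as a lncRNA that holds back differentiation of progenitor cells. DANCR was at 93.4, 86.5 and 94.3 CPM in SCR1 replicates 1, 3 and 4 and between 74.7 and 90.6 CPM with a median of 79.9 CPM in KO. The groups overlapped only through sgRNA_96 replicate 1, the highest KO library. DANCR fell by 0.19 on the log2 scale (SE 0.06, adjusted p = 0.0279), and over the alternatives its adjusted p lay between 0.00281 and 0.331. The call was lost in 9 alternatives, among them those without SCR1 replicate 1 (0.122), without SCR1 replicate 4 (0.124), without sgRNA_96 replicate 3 (0.0504), without sgRNA_96 replicate 4 (0.0534) and without sgRNA_97 replicate 3 (0.0525). With sgRNA_97 alone against SCR1, DANCR, SNHG12 (-0.20) and SNHG17 (-0.24) were called lower and GAS5 (0.18) higher, whereas no snoRNA host was called with sgRNA_96.

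The starts of snoRNA host genes were inspected because several of these genes are known to begin with a run of pyrimidines, as the mRNAs of ribosomal proteins do. In windows of 15 bases on each side of the RefSeq start, a run of 8 or more C or T on the transcript's strand stood in 6 of 20 snoRNA hosts (30%), in 21 of 134 members with a RefSeq promoter (15.7%) and in 13.4% of 27305 promoters. The windows of SNHG29, SNHG12 and SNHG4, picked among the hosts with such a run, are shown (GRCh38.p14, 5′ to 3′) with the longest run in capitals.
SNHG29 (chr17:16438972-16439001, plus strand): CCCCTCCTTTTgtgaggattgggatattcc
SNHG12 (chr1:28581859-28581888, minus strand): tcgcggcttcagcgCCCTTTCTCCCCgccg
SNHG4 (chr5:139274086-139274115, plus strand): ctcggctcccggctgCCCTTTCCCCTCCgg
These runs are a description of letters in the window and do not mark a mapped start site. That of SNHG29 lies wholly before the RefSeq start, and the longest run in the GAS5 window was 4 bases.

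The genes for proteins that build snoRNA particles formed a separate list. Of its 15 genes, 6 fell (40%) and none rose, with a median log2 fold change of -0.14, where 10.6% of all genes and 15.2% of protein-coding genes at 10 CPM or more were called lower. Each guide alone called 3 lower (20%), against 5.41% of all genes with sgRNA_96 and 7.76% with sgRNA_97. The fallers were FBL, the methyltransferase of the box C/D particle (-0.18), NOP56 (-0.14) and SNU13 (-0.17) of the same particle, NHP2 (-0.33) and GAR1 (-0.21) of the box H/ACA particle, and the assembly factor RUVBL1 (-0.22). In the list of 10 nonsense-mediated decay factors, SMG1, the kinase of the pathway, was called higher (0.16), none was called lower, and the median was -0.05. That is a share of 10%, near the 10.1% of all genes called higher. With sgRNA_97 alone 2 of the 10 were called lower (20%, against 7.76% of all genes) and none higher, and sgRNA_96 alone called none.

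The microRNA hosts were divided. Of 26 genes on the list 7 were members, and of these 3 rose, none fell and 4 were not called in edgeR. That is 42.9% called higher, beside 33.3% of all members and 10.1% of all genes tested. DESeq2 called 3 higher and 1, MIR17HG, lower. MIR3142HG, the host of miR-146a, was at 22.5, 22.4 and 19.8 CPM in SCR1 and between 26.9 and 37.2 CPM with a median of 34.0 CPM in KO. All KO libraries lay above all controls, and MIR3142HG rose 1.53-fold, with a log2 fold change of 0.61 (SE 0.09, adjusted p = 0.000294).

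MIR34AHG, the host of miR-34a, a microRNA induced by p53, was at 22.2, 27.4 and 25.7 CPM in SCR1 and between 29.3 and 36.1 CPM with a median of 31.8 CPM in KO. The groups did not overlap, and the log2 fold change was 0.36 (SE 0.08, adjusted p = 0.00477). The call was lost without SCR1 replicate 1 (adjusted p = 0.0510) and in limma. MIR600HG rose by 0.26 on the log2 scale (SE 0.05, adjusted p = 0.00223), from 52.9, 59.1 and 55.4 CPM in SCR1 to between 63.3 and 70.7 CPM with a median of 66.8 CPM in KO. Its exons overlap those of STRBP on the same strand, so the division of reads between these genes rests on Salmon, and its call was lost in limma (adjusted p = 0.0583 on log2(TPM + 1)).

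MIR17HG stood at the other end. It was at 19.6, 24.1 and 20.6 CPM in SCR1 and between 13.01 and 20.6 CPM with a median of 16.8 CPM in KO. Replicate 1 of each guide lay within the control range and the other 4 KO libraries below it. The log2 fold change was -0.32 (SE 0.12) and its adjusted p of 0.0698 in edgeR missed the threshold. MIR17HG was called lower in 7 of the alternatives, among them DESeq2 (adjusted p = 0.0476), no filter on low counts (0.00765), the replicate number as a block (0.0418), the GC trend (0.0140), without sgRNA_96 replicate 1 (0.0293) and without sgRNA_97 replicate 1 (0.0302). Its adjusted p reached 0.269 without SCR1 replicate 3. DLEU2 (0.02), MIRLET7A1HG (0.11) and MIR142HG (0.24) were not called, and MIR142HG was called higher in 4 of the alternatives, among them the one without sgRNA_97 replicate 1 (adjusted p = 0.0394).

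**Figure D3:**
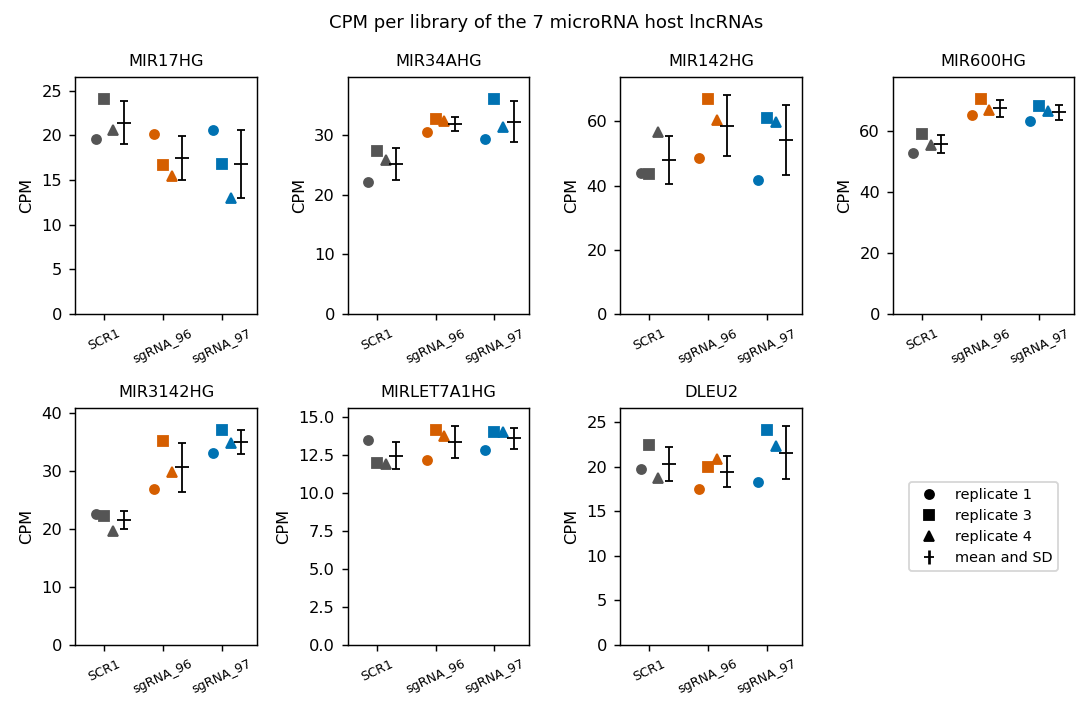
CPM per library (linear axes from 0) of the 7 microRNA host lncRNAs, with a symbol for each replicate number and bars for mean and SD (n = 3 per guide). MIR34AHG, MIR600HG and MIR3142HG have all KO libraries above all controls, while the other 4 hosts overlap.

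Hairpins also lie in members named for other reasons. Of the 23 members with a hairpin, 8 were called higher and 1, DANCR with MIR4449, lower. For comparison, 33.3% of all members and 10.1% of all genes tested were called higher, and 10.6% of all genes lower. LINC-PINT, a transcript induced by p53 and the host of miR-29a and miR-29b, was at 10.05, 9.29 and 10.6 CPM in SCR1 and between 13.2 and 16.3 CPM with a median of 15.2 CPM in KO. The groups did not overlap, and the log2 fold change of LINC-PINT was 0.59 (SE 0.10). Its SCR1 mean is just under the minimum of 10 CPM. LINC-PINT thus became a member through the group in which it is high, and its values are given as a description. GABPB1-AS1 (MIR4712), ENTPD1-AS1 (MIR3157), TTC28-AS1 (MIR3199-2) and ENSG00000291117 (MIR4315-2) completed the risers. In the list of 10 microRNA processing genes only DICER1 was called, higher at 0.21 on the log2 scale (adjusted p = 0.00369), a share of 10% beside the 10.1% of all genes called higher.

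The nuclear lncRNAs NEAT1 and MALAT1 rose. NEAT1 (chr11:65422774-65445540, plus strand) was at 149, 177 and 186 CPM in SCR1 and between 212 and 291 CPM with a median of 260.01 CPM in KO. Every KO library lay above every control. NEAT1 rose 1.51-fold, with a log2 fold change of 0.59 (SE 0.09, adjusted p = 0.000297), and by 0.62 and 0.56 with sgRNA_96 and sgRNA_97. The long form of NEAT1, annotated at 22743 bases, is the one needed to build paraspeckles. Its share of NEAT1 TPM was 1.097 ± 0.0522% in SCR1 (SD, n = 3) and 1.33 ± 0.127% in KO (SD, n = 6), a difference of 0.236 percentage points (exact two-sided permutation test, p = 0.0357). All KO shares, from 1.197 to 1.53%, lay above the controls, the highest of which was 1.1545%. Without any one SCR1 library the p was 0.0714. The short form lies wholly within the long one, so the division of reads between them rests on the few that fall outside it. The short form is the polyadenylated one, and these libraries were poly(A)-selected. The share therefore does not measure how much of the long form the cells held.

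MALAT1 was at 198, 191 and 158 CPM in SCR1 and between 183 and 327 CPM with a median of 289 CPM in KO. Replicate 1 of each guide lay inside the control range and the other 4 KO libraries lay above it. Its log2 fold change was 0.54 (SE 0.16, adjusted p = 0.0214), and the adjusted p lay between 8.98e-14 and 0.124 over the alternatives. The call was lost without SCR1 replicate 4 (0.112) and in the 3 fits that correct for effective length or use TPM. The longest annotated MALAT1 transcript, of 10434 bases, held 0.0161% of the gene's TPM in SCR1 and 0.0668% in KO. The mature MALAT1 end has no poly(A) tail, and these libraries were poly(A)-selected.

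Of the 9 genes in the list of nuclear architecture and imprinted lncRNAs, 3 were members, NEAT1, MALAT1 and CHASERR, and CHASERR, which lies next to and represses CHD2 and shares exon sequence with it here, was not called (0.10). NORAD, which binds PUMILIO proteins in the cytoplasm, was flat at 256, 275 and 273 CPM in SCR1 and 255 to 295 CPM in KO (log2 fold change -0.00, SE 0.05). OIP5-AS1, also cytoplasmic, had a log2 fold change of -0.05. Paraspeckle proteins fell or were not called. Of 10 genes, NONO (-0.14), PSPC1 (-0.13), RBM14 (-0.30) and HNRNPK (-0.14) were called lower, none was called higher, and the median was -0.11. That is 40% called lower, where 10.6% of all genes and 15.2% of protein-coding genes at 10 CPM or more were called lower. With sgRNA_96 alone 1 was called lower (10%, against 5.41% of all genes). With sgRNA_97 alone 2 were called lower (20%, against 7.76%). In the list of 16 nuclear exosome and adaptor genes EXOSC3 (-0.30) and EXOSC10 (-0.14), subunits of the exosome, fell, ZFC3H1, a factor that targets polyadenylated RNA to it, rose (0.28), and the median was -0.04. These 3 calls are 18.8% of the list, near the 20.7% of all genes tested that were called in either direction.

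The largest rises were seen in LINC02984, PURPL, LINC01013, BLACE, LINC01134 and LINC01139. They were chosen among 49 members that were called higher in the pooled comparison and with each guide and whose groups did not overlap. None of the 6 largest shares an exon with another gene on its own strand.

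LINC02984 (chr8:53493523-53524336, minus strand) was at 5.97, 7.18 and 6.29 CPM in SCR1 and between 14.6 and 17.7 CPM with a median of 16.4 CPM in KO. The fold was 2.53 and the log2 fold change 1.34 (SE 0.10). Its SCR1 mean of 6.48 CPM is under the minimum, so LINC02984 became a member through the group in which it is high, and its values are given as a description. The lowest KO library was above 2 times the highest control.

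PURPL (chr5:27217714-27497871, plus strand) is induced by p53 and is known to lower p53 levels in turn. It was at 46.5, 58.6 and 52.1 CPM in SCR1 and between 89.4 and 119.5 CPM with a median of 112 CPM in KO. It rose 2.09-fold, with a log2 fold change of 1.07 (SE 0.09, adjusted p = 7.47e-07), and the groups did not overlap. The RefSeq promoter of PURPL holds a p53 response element (2 half-sites, searched by its consensus on both strands), which only 5 of 27305 promoters of this length (0.0183%) and 1 of the 134 members with a promoter had. The match, printed above, is a description of the sequence, and binding was not measured here.

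LINC01013 (chr6:131901848-132169992, plus strand), which overlaps CCN2 on the other strand, was at 21.7, 17.3 and 18.6 CPM in SCR1 and between 37.3 and 43.1 CPM with a median of 40.3 CPM in KO. It rose 2.08-fold, with a log2 fold change of 1.05 (SE 0.08, adjusted p = 2.69e-07). The spread within each group was small beside the gap between them.

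BLACE, named for its expression in B cell acute lymphoblastic leukemia, lies at chr7:155356985-155367934 (minus strand). It was at 35.2, 35.98 and 40.3 CPM in SCR1 and between 64.9 and 89.6 CPM with a median of 74.5 CPM in KO. It rose 2.02-fold, with a log2 fold change of 1.01 (SE 0.10, adjusted p = 3.95e-06). Its neighbor LINC03010 (chr7:155382076-155396356, plus strand) rose too, by 0.58 on the log2 scale (SE 0.06), without overlap between groups.

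LINC01134 was at 9.23, 7.13 and 10.5 CPM in SCR1 and between 13.7 and 22.6 CPM with a median of 15.98 CPM in KO, with a log2 fold change of 0.90 (SE 0.15). Its SCR1 mean of 8.95 CPM is likewise under the minimum, so these values too are a description. LINC01139 was at 15.8, 15.4 and 13.8 CPM in SCR1 and between 23.4 and 31.5 CPM with a median of 27.3 CPM in KO, with a log2 fold change of 0.89 (SE 0.09, adjusted p = 8.34e-06). In both the groups did not overlap, and LINC01134 was highest in sgRNA_96 replicate 1.

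**Figure D4:**
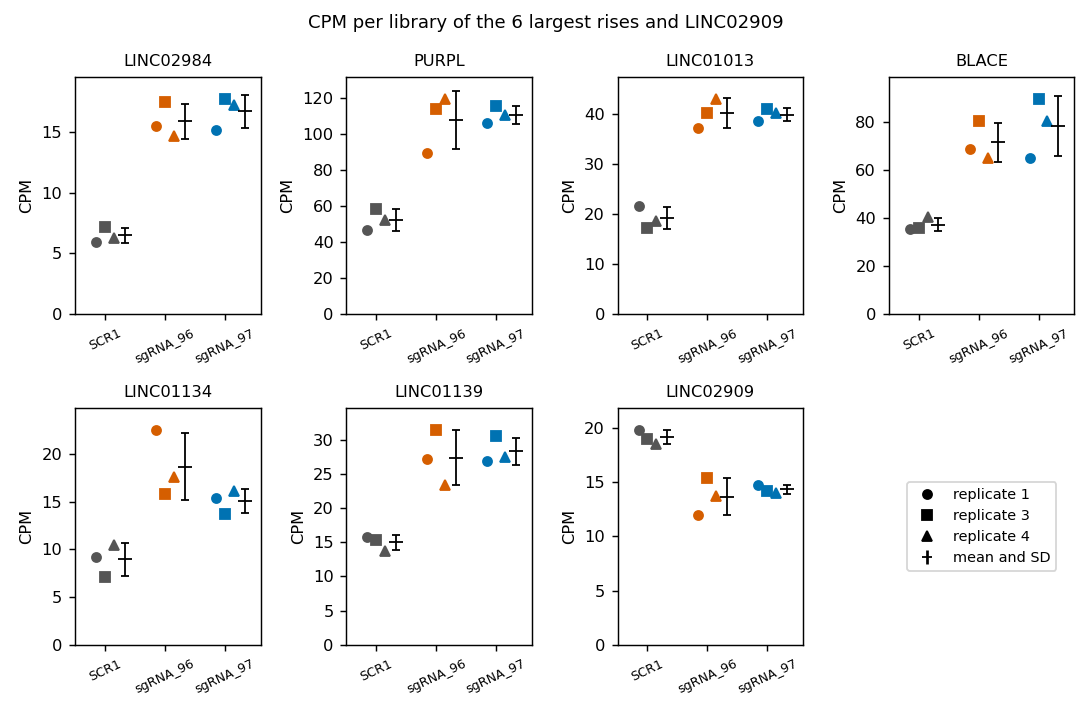
CPM per library (linear axes from 0) of the 6 members with the largest rises and of LINC02909, with a symbol for each replicate number and bars for mean and SD (n = 3 per guide). In the 6 rises all KO libraries of both guides lie above all controls, and in LINC02909 all lie below.

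The members that fell were few. LINC02909 (chr12:24993424-25006403, minus strand), whose span meets that of IRAG2 on the other strand, was the only one called lower in the pooled comparison and with each guide. It was at 19.8, 18.99 and 18.5 CPM in SCR1 and between 12.0 and 15.3 CPM with a median of 14.1 CPM in KO. It fell by 0.45 on the log2 scale (SE 0.08, adjusted p = 0.00134), and the groups did not overlap. RNF216P1, a transcribed pseudogene that overlaps 3 genes on its strand and whose reads may be shared with its parent, fell by 0.37 (SE 0.10, adjusted p = 0.0162) with one KO library inside the control range. The call was lost in 5 alternatives, without SCR1 replicate 1 (0.122), without SCR1 replicate 3 (0.0647), with the length offset (0.0864) and in both limma fits (0.102 on log2(TPM + 1)).

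Immune and other named members were also among the 97. HCP5, a lncRNA of the major histocompatibility complex, was at 111, 111 and 101 CPM in SCR1 and between 146 and 172 CPM with a median of 164 CPM in KO, and rose by 0.58 on the log2 scale (SE 0.06, adjusted p = 4.02e-06). WAKMAR2, which lies opposite TNFAIP3, rose by 0.52, HAR1A by 0.64, MIAT by 0.44 and PVT1, the neighbor of MYC, by 0.25. In each of these all KO libraries lay above all controls. The call of PVT1 was lost in 7 alternatives, its adjusted p reaching 0.362, and without SCR1 replicate 1 it was 0.139, without SCR1 replicate 4 0.0814, without sgRNA_96 replicate 3 0.0713 and without sgRNA_97 replicate 3 0.0653. That of MIAT was lost in 4, without SCR1 replicate 1 (0.0590), with the length offset (0.0633) and in both limma fits (0.147 and 0.156).

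Antisense and divergent members were compared with the genes they are named after. Of 18 divergent members 7 rose and none fell, and of 60 in the antisense class 20 rose and none fell, with median log2 fold changes of 0.18 and 0.15. Of 79 members with such a symbol, 71 had a partner gene that was tested. In the 24 pairs whose lncRNA rose, the partner rose in 7, fell in 2 and was not called in 15. The median log2 fold change was 0.35 for these lncRNAs and 0.12 for their partners, and in 22 of the 24 the lncRNA had the higher value. The lncRNAs of these pairs were picked for having risen and their partners were not, so the size of the gap is a description. Over all 71 pairs, 12 partners rose and 9 fell, with a median log2 fold change of -0.02, and the median of their lncRNAs was 0.15. Beside these counts, 10.1% of all genes tested were called higher and 10.6% lower. Of protein-coding genes at 10 CPM or more, 11.6% were called higher and 15.2% lower. The partner counts are a description and were not tested against these shares.

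GABPB1-AS1 was at 47.1, 55.5 and 51.4 CPM in SCR1 and between 68.6 and 90.3 CPM with a median of 78.5 CPM in KO, and rose by 0.62 on the log2 scale (SE 0.08, adjusted p = 4.72e-05). Its partner GABPB1, a subunit of the GA-binding protein, rose by 0.18 (adjusted p = 0.0282). TMCC1-DT was at 24.4, 26.3 and 23.7 CPM in SCR1 and between 29.8 and 34.5 CPM with a median of 33.97 CPM in KO, and rose by 0.42 (SE 0.07, adjusted p = 0.000481), while TMCC1 had a log2 fold change of 0.23 (adjusted p = 0.0706). In both lncRNAs the groups did not overlap.

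ENTPD1-AS1 was at 331, 327 and 338 CPM in SCR1 and between 377 and 408 CPM with a median of 392 CPM in KO. It rose by 0.24 (SE 0.04, adjusted p = 0.000377) and ENTPD1, which encodes the ectonucleotidase CD39, by 0.30 (adjusted p = 0.0336). GAS6-AS1, which also shares exons with TMEM255B on its strand, rose by 0.74 (adjusted p = 1.09e-05), and its partner GAS6 was too low to be tested. Among the pairs whose lncRNA rose, the partners that fell were PSMA3 (-0.24), a proteasome subunit, and SLC25A25 (-0.31), a mitochondrial carrier. Exons of 164 members overlap a gene on the other strand, and whether the counting used strand is not given in the sources used here, so reads of such pairs cannot be told apart.

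**Figure D5:**
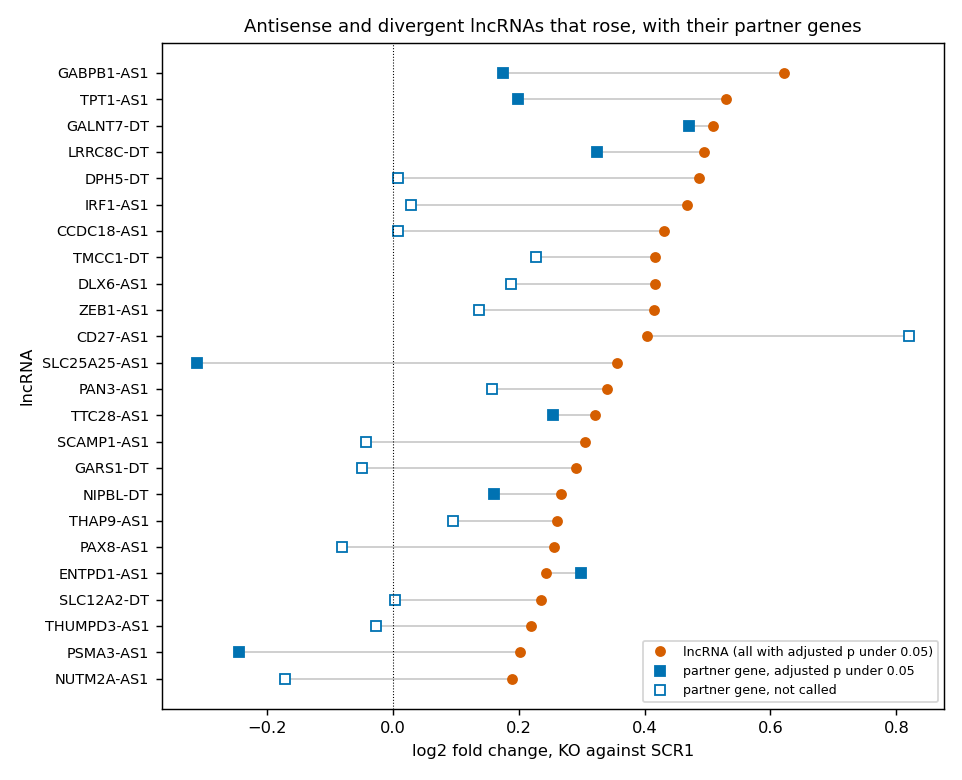
Log2 fold change of KO against SCR1 (linear axis) for the 24 antisense and divergent lncRNAs that rose and had a tested partner, with circles for the lncRNA, filled squares for partners called and open squares for partners not called (edgeR, adjusted p under 0.05). The circle lies to the right of the square in 22 of the 24 pairs.

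Members with a LINC number rose in 15 of 31 and fell in 1, and both members named as intronic rose. The LINC count includes LINC02984 and LINC01134, which became members through the group in which they are high. Set beside the counts of this paragraph, 10.1% of all genes tested were called higher and 10.6% lower. Of 88 members known by identifier only, 27 rose, and of 63 with another symbol 23 rose and 1 fell. Rises were called with and without overlapping gene models. Of the 67 members whose exons overlap no exon of another gene, 30 rose and 1 fell, with a median log2 fold change of 0.23, and of the 122 that overlap a gene on their own strand 34 rose and 2 fell. The 3 members with any library under 5 CPM, ENSG00000274333, SLX1A-SULT1A3 and SLX1B-SULT1A4, were not called. The last 2 belong to duplicated gene copies whose division of reads is uncertain.

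Letters of binding motifs in the RefSeq promoters (250 bases before to 50 after the start, both strands) were counted because the targeted enhancer is bound by TCF3::HLF. The HLF-type motif TTACATAA stood in 1 of 134 members with a promoter, LINC00938 (0.746%), against 0.912% of all promoters, and TTACGTAA in none, against 0.139%. The MEF2-type motif CTATTTATA stood in 1, DLEU2 (0.746%), against 0.432%. The E-box CACGTG was in 11.2% of members and 7.43% of all promoters, CCAAT in 40.3% and 35.7%, and TGACGTCA in 0.746% and 1.98%. Of the 44 members called higher that had a promoter, 1 held an HLF-type motif and none the MEF2-type motif. Enhancers lie outside these windows.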

How the data were processed

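The authors sequenced poly(A)-selected libraries and, per the labels, aligned reads with STAR and quantified transcripts with Salmon 1.10.1 on GRCh38. They deposited estimated counts per transcript, not normalized, and TPM, scaled for effective length and to 1000000 per library. All 252835 transcripts matched GENCODE release 44, and no column lacked a sample. Transcript values were added up within each gene, and the estimated counts then rounded to whole numbers. edgeR 4.0.16 (R 4.3.3) was used with TMM scaling, filterByExpr (minimum count 10) and the quasi-likelihood test, in a fit of KO against SCR1 and a fit of 3 groups, with Benjamini-Hochberg adjustment over 14436 genes and a threshold of 0.05. CPM in comparisons are TMM-scaled. The study's methods name DESeq2, and DESeq2 1.42.0 and limma 3.58.1 on log2(TPM + 1) or log2(TPM + 0.1) were alternatives. On simulated counts for KO against SCR1, 83% of 200 genes changed 2-fold were called, with 6 false among 172 calls (14436 genes). No replicate pair agreed within sampling noise.

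The members and lists were chosen with earlier results of these data known. Genes were named by rule: a panel of 20 well-known lncRNAs where they were members, the 6 largest rises and up to 6 largest falls called in KO and with each guide without overlap, the 5 highest by TPM, the 3 genes on each side of the minimum, members called between guides, and the 3 partner pairs with the smallest adjusted p. Of the panel, MIR155HG, KCNQ1OT1, MEG3 and CYTOR lay under the minimum, and TUG1 is classed as protein-coding. Other genes were named after their values were seen. The GC and length trends and the fit without both KO replicates 1 were chosen after seeing the data.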

Additional observations from a re-analysis of the deposited data

Results flagged for a closer look

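For the named members, the summed shares and the NEAT1 transcript share, 49 sets of values in the 6 KO libraries were tested for a single value far from the others by Dixon's ratio of gap to range (critical value 0.625 for 6 libraries), and 2 passed, where chance passes about 1 in 20 (2.45 expected). Both were in sgRNA_96 replicate 1. SNHG8 was lowest there at 56.5 CPM, with the other KO libraries between 65.6 and 70.0 CPM (ratio 0.673). DANCR was highest there at 90.6 CPM, with the others between 74.7 and 80.3 CPM (ratio 0.649). The same library lay at one end of the second principal component. The cause was not tested.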

How the results depend on the processing

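The median log2 fold change of the members was above 0 in every alternative, between 0.139 and 0.173 over all members and 0.23 over those that overlap no other gene. For the 47 named genes over 19 alternatives, 34 calls were lost and 31 gained, and no call turned its direction. The uncalled values of DLEU2, NORAD, SNHG1, SNHG5 and SNHG6, all near 0, changed sign in at least 1 alternative. Of the 97 members called higher, 37 were called higher under every alternative. For KO against SCR1 (100 in the report) it was 47 with limma on log2(TPM + 1), 47 on log2(TPM + 0.1), 51 with a length offset, 54 of the 136 members at 20 CPM or more and 31 of the 67 that overlap no other gene. With sgRNA_96 (62) these were 26, 26, 35, 33 and 22, and with sgRNA_97 (76) they were 32, 31, 40, 44 and 24. Leaving out each replicate in turn gave 54 to 113 for KO, with 54 without SCR1 replicate 1. It gave 35 to 76 for sgRNA_96, with 35 without sgRNA_96 replicate 3 and 37 without SCR1 replicate 1, and 41 to 80 for sgRNA_97, with 41 without sgRNA_97 replicate 3 and 43 without SCR1 replicate 1. Between guides (0) the count was 2 without the filter on low counts and 0 in each leave-one-out.

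Among snoRNA hosts (1 called) the count was 3 with DESeq2 (2 higher, 1 lower), 2 without the filter (1 higher, 1 lower), 0 in both limma fits and with the length offset, 4 without both KO replicates 1 (3 higher, 1 lower), 2 with a GC trend (1 higher, 1 lower), 3 with a length trend (3 higher, 0 lower), and 0 to 4 when leaving out a replicate. Among microRNA hosts (3 called) it was 5 without the filter, without both KO replicates 1 and with the GC trend, 1 in both limma fits, and 2 to 5 when leaving out a replicate. The NEAT1 share difference was 0.196 to 0.265 percentage points when leaving out a replicate, and its p was 0.0714 without any one SCR1 library. With the replicate number as a block, 100 members were called for KO (96 higher, 4 lower), 64 for sgRNA_96 and 71 for sgRNA_97, and among the named genes only the call of MIR17HG changed (adjusted p = 0.0418). Same-numbered libraries did not deviate together over the genes tested (correlations -0.066 to 0.055). With 3 libraries per guide this cannot settle whether the numbers mark a pairing or a batch, and the labels do not say. The cause of these changes was not tested. With 3 control libraries and low counts for members near 10 CPM, small changes may be missed.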
